A study of Mus musculus with 12 samples.

Results

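The genes described here are the FOS and JUN families of transcription factor subunits, Fos, Fosb, Fosl1 and Fosl2 with Jun, Junb and Jund, which together make up most dimers of activator protein 1 (AP-1). They were taken by gene name, 7 of the 51912 genes of the deposited expression table, and each name had a single row. The cells were primary neurons dissociated from the cortex of C57BL/6J mouse embryos at E17.5, and total RNA was sequenced in 12 libraries, 3 for each of 4 groups. The groups were neurons kept with erinacine S for 48 h, neurons kept with the solvent DMSO for 48 h, and the same pair after 16 h. Erinacine S, a compound of Hericium erinaceus mycelium, was given at 1 µg/mL a few hours after plating, and the title of the series concerns neuronal regeneration and the accumulation of neurosteroids. Nothing in the labels says which litters, dishes or days the repeats of a group stand for, so p-values speak only for how far these libraries scatter, and that scatter may be technical.

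AP-1 is a dimer of basic leucine zipper proteins. JUN proteins pair with each other or with a FOS protein, while FOS proteins bind DNA only as the partner of a JUN or related protein. Fos, Fosb, Jun and Junb are immediate early genes: synaptic activity, growth factors and calcium entry raise their RNA within minutes without new protein synthesis, and the RNA is short-lived. Jund and Fosl2 are as a rule expressed more steadily, and Jun is also known in neurons for its induction after axon injury.

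The promoters of Fos, Fosb, Jun and Junb are shown because these genes had the lowest unadjusted p-values of the family at 48 h. RefSeq start sites (build GRCm38.p6) were found for 6 members, all but Fosl1, and each window runs 250 bases before to 50 bases after the start, 5′ to 3′ on the strand of the gene. Capitals mark matches to the motifs searched.
Fos, chr12:85473640-85473939, + strand.
Fos: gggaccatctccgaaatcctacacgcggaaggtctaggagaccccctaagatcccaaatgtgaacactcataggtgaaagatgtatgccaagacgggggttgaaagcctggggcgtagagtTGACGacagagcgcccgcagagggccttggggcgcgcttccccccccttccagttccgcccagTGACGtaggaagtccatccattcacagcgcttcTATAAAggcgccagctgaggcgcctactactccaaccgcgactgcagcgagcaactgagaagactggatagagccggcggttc
Fosb, chr7:19309996-19310295, - strand.
Fosb: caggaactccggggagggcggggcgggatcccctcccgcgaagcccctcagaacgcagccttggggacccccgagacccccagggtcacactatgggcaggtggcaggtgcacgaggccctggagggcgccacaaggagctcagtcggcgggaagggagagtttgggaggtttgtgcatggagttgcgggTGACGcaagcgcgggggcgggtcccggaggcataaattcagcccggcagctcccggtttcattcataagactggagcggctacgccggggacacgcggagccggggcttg
Jun, chr4:95052173-95052472, - strand.
Jun: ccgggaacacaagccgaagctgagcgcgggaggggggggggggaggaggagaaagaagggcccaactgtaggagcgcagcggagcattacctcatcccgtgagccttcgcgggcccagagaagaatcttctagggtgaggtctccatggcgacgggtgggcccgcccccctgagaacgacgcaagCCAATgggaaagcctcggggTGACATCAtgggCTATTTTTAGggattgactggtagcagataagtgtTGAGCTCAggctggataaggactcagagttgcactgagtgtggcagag
Junb, chr8:84978699-84978998, - strand.
Junb: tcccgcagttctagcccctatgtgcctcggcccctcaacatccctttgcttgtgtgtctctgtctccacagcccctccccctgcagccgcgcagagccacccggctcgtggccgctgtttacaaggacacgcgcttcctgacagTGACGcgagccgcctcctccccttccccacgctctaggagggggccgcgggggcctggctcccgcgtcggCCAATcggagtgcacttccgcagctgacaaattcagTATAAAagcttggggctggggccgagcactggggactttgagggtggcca

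Both strands were searched for the cAMP response element half-site TGACG, the full element TGACGTCA, the AP-1 site TGANTCA, the AP-1-like form TGANNTCA, the CArG box, the MEF2 box, the TATA box TATAAA, and the CCAAT box. Any full element is also a match to the half-site and to the AP-1-like form. The Fos window holds TGACG at -129 and again at -66, counted from the RefSeq start to the first base of the match, and TATAAA at -33. In Fosb there is a single TGACG at -60. The Jun window holds CCAAT at -65, TGACATCA at -45, a MEF2 box at -33 and TGAGCTCA at 3. Junb carries TGACG at -106, CCAAT at -36 and TATAAA at 1, and the start of the deposited Junb gene lies 30 bases downstream of the RefSeq start. The Jund window has TGAAATCA at -61, from a RefSeq start 1210 bases upstream of the deposited one. The Fosl2 window has no match, but the deposited Fosl2 start lies at -671 from the RefSeq start. That window therefore lies wholly inside the deposited gene, and the sequence around the deposited start was not searched. TGACG is held by 20.8% of 32851 mouse promoter windows of this length, TGANNTCA by 14.1%, TATAAA by 13.6%, CCAAT by 37.4% and the MEF2 box by 3.19%. No member window holds TGACGTCA, TGANTCA or a CArG box, which 1.79%, 7.81% and 1.63% of all windows hold. These are letter matches in a short window and say nothing of binding.

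Values are in TPM, in which a gene's reads are scaled by its length and by the total of the library, so levels can be set side by side between genes. Averaged over the 12 libraries, Jund had 203 TPM, Jun 115 TPM, Fosl2 19.9 TPM, Fos 15.2 TPM, Junb 8.47 TPM, Fosb 1.78 TPM and Fosl1 0.957 TPM. Of the 15623 genes with a mean of at least 1 TPM, which were the genes tested, 94.8% had a lower mean than Jund, 88.9% a lower mean than Jun and 43.0% a lower mean than Fos. Fosl1 missed that minimum and was not tested, so 6 of the 7 members were.

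In the deposited coordinates (GRCm38), Fos lies on chromosome 12 at 85473890 to 85477273 (+ strand), Fosb on chromosome 7 at 19302696 to 19310051 (-), Fosl1 on chromosome 19 at 5447703 to 5455945 (+) and Fosl2 on chromosome 5 at 32135801 to 32157842 (+). Jun lies on chromosome 4 at 95049034 to 95052222 (-), Junb on chromosome 8 at 84974484 to 84978718 (-) and Jund on the same chromosome at 70698949 to 70700616 (+). The longest coding transcript has 4 exons in each FOS gene and 1 exon in each JUN gene. Fosb has 6 annotated coding transcripts, and a value per gene does not separate its full-length form from the truncated deltaFosB form. Junb overlaps Prdx2 on the other strand, which averaged 548 TPM; Jun overlaps the antisense gene Junos (mean 1.82 TPM) and Jund the antisense gene Gm11175 (mean 2.76 TPM). The libraries were strand-specific, but the strand setting of the counting is not given in the sources used here, so these 3 values may hold reads of the overlapping gene.

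Replicates correlated at 0.980 to 0.995 across genes, and the share of mitochondrially encoded RNA ran between 5.12% and 7.70%. The erinacine S 48 h replicate 1 stood apart: 863 tested genes, 5.52%, had over 1.5 times the TPM of both its fellow replicates, against 0.640% to 2.94% in the other libraries. The label of cortical neurons was met by 12 of 12 neuron markers, none of them at 0, which summed to 5892 to 6027 TPM with erinacine S at 48 h, 5838 to 6103 TPM with DMSO at 48 h, 4670 to 5217 TPM with erinacine S at 16 h and 4531 to 5097 TPM with DMSO at 16 h. Dividing cell and radial glia markers were present as well, and in bulk RNA fewer cells of a type cannot be told apart from less RNA per cell.

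After 48 h, RNA of Fos, Jun and Junb was lower with erinacine S than with DMSO, at 0.169, 0.400 and 0.375 times the DMSO mean. These 3 of the 6 tested members passed at an adjusted p of 0.05 (limma, Benjamini-Hochberg over all tested genes), all lower, against 0.115% of all tested genes called lower and 0.134% called at all. Fosb, Jund and Fosl2 had lower means too but did not pass. The libraries of the 2 treatments did not overlap for 5 of the 6, all lower with erinacine S, against 8.74% of tested genes that were lower without overlap. The median log2 difference of the 6 was -1.27, and that of all tested genes was 0.01.

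**Figure D1:**
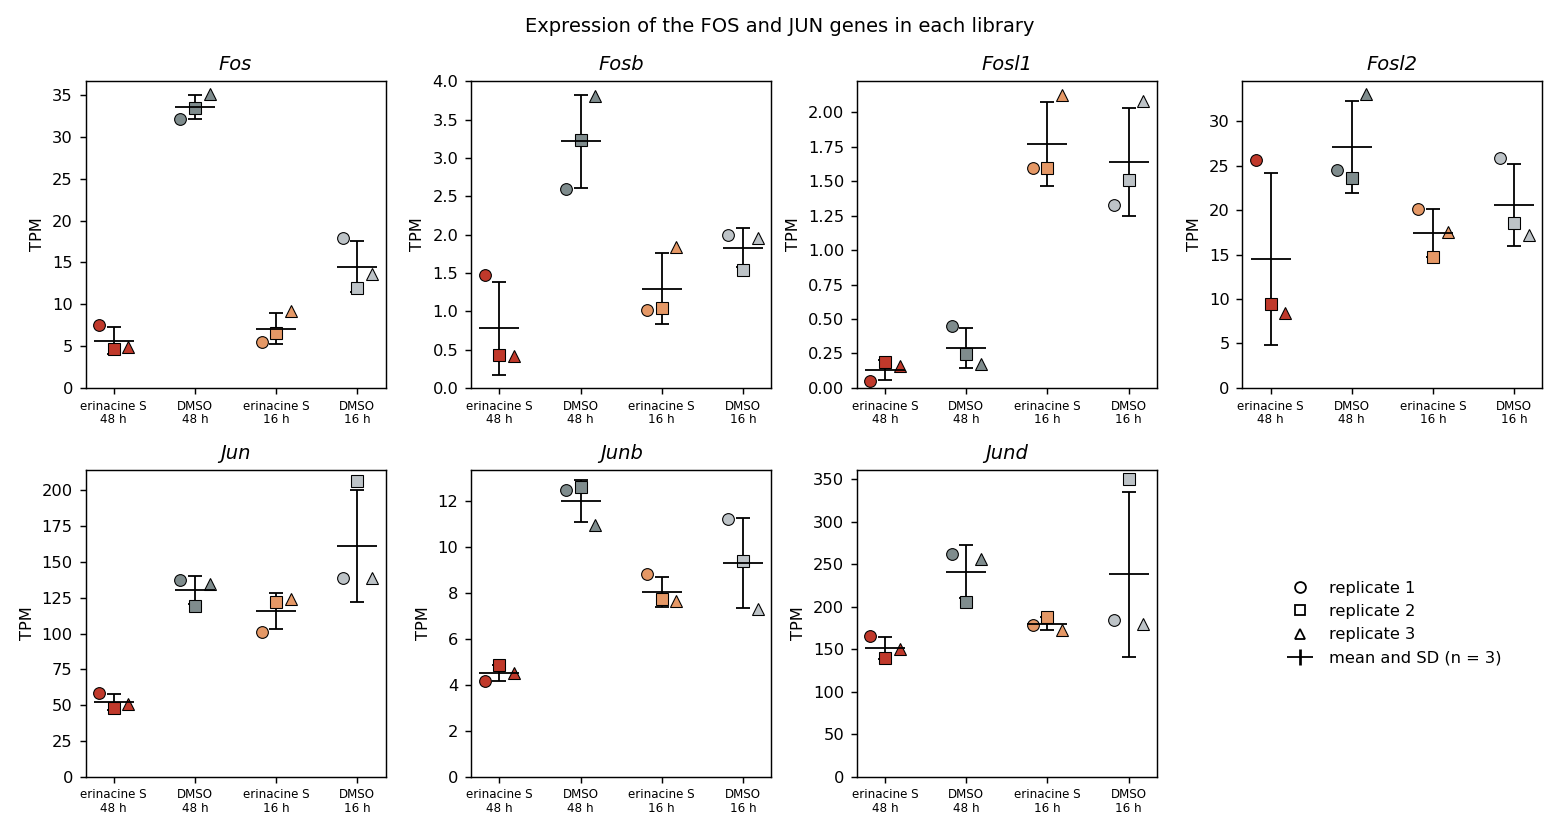
TPM of each member in the 12 libraries (1 panel per gene), with points for single libraries and lines for the group mean ± SD (n = 3 each), erinacine S left of DMSO at each time. Fos, Jun and Junb in the 48 h erinacine S libraries lie below every 48 h DMSO library, while for Fosl2 replicate 1 (25.7 TPM) lies among the DMSO libraries.

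Among the FOS genes, Fos encodes the prototype partner of JUN in activity-induced AP-1. It had 7.48, 4.60 and 4.91 TPM in the erinacine S 48 h libraries, against 32.2, 33.4 and 35.1 TPM in the DMSO 48 h libraries. The highest erinacine S library stood far below the lowest DMSO library. Fos fell by 2.40 ± 0.19 (SE) on the log2(TPM + 1) scale, with an adjusted p of 0.000574 (limma, n = 3 each), and had the smallest p of all genes tested. The truncated deltaFosB form made from Fosb persists longer in neurons under repeated stimulation. Fosb had 1.47, 0.430 and 0.422 TPM with erinacine S and 2.60, 3.23 and 3.81 TPM with DMSO. Here too the treatments did not overlap, but the difference of -1.29 ± 0.22 had an adjusted p of 0.0564 (limma). Fosl2, a FOS relative found in steadier AP-1, had 25.7, 9.47 and 8.43 TPM with erinacine S and 24.6, 23.7 and 33.1 TPM with DMSO. Replicate 1 of the erinacine S libraries lay inside the DMSO range and the other 2 well below it, and the difference of -1.01 ± 0.32 had an adjusted p of 0.348 (limma). Fosl1, better known from growing and invasive cells, had 0.0465, 0.185 and 0.157 TPM with erinacine S and 0.451, 0.248 and 0.172 TPM with DMSO. All 6 values were under 1 TPM and the treatments overlapped.

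Among the JUN genes, Jun encodes the strongest activator of the family. It had 58.5, 47.6 and 50.5 TPM in the erinacine S 48 h libraries, against 138, 119 and 134 TPM in the DMSO 48 h libraries. All 3 treated libraries were below all controls. Jun fell by 1.31 ± 0.14 on the log2 scale, with an adjusted p of 0.00215 (limma, n = 3 each). Junb, a weaker activator that can oppose Jun at some promoters, had 4.15, 4.86 and 4.51 TPM with erinacine S and 12.5, 12.6 and 10.97 TPM with DMSO. Its replicates lay close together in both groups, and the gap between the groups was larger than the range within either. Junb fell by 1.24 ± 0.13, also with an adjusted p of 0.00215 (limma). Jund, the member with the highest level in every group, had 165, 139 and 151 TPM with erinacine S and 262, 205 and 257 TPM with DMSO. The treatments did not overlap, but the difference of -0.66 ± 0.20 had an adjusted p of 0.325 (limma).

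The call for Fos and that for Junb held under every alternative tried. Jun lost its call only with no filter on low values (adjusted p = 0.0744, limma). Without the erinacine S 48 h replicate 1, Fosb (-1.55, adjusted p = 0.00527) and Fosl2 (-1.48, adjusted p = 0.00587) were called as well, and without the DMSO 16 h replicate 2, which had the highest Jund level, 1.90 times that of the next DMSO 16 h library, Jund was called (adjusted p = 0.0285, limma).

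Sums of markers of other cell types differed between the treatments at 48 h for part of the lists. Only C1qc was called among these markers, against 0.115% of all tested genes called lower. The 9 microglia markers summed to 1.30, 7.28 and 8.69 TPM in the erinacine S 48 h libraries and to 16.3 to 23.2 TPM with DMSO, with 5 of the 9 tested, all with negative differences, and C1qc called lower, a call that held in only 3 of the 12 fits with a library left out (adjusted p otherwise up to 0.228, limma) and was lost with either replicate block; C1qa was listed at 0 in the erinacine S replicate 1. The 7 oligodendrocyte lineage markers summed to 66.5, 174 and 187 TPM with erinacine S and 201 to 233 TPM with DMSO, and the 8 endothelial and mural markers to 0.769 to 2.34 TPM with erinacine S and 2.47 to 3.08 TPM with DMSO, with Kcnj8 listed at 0 in all of them. The 5 fibroblast markers summed to 0.569 to 0.901 TPM with erinacine S and 1.53 to 1.92 TPM with DMSO. The 8 astrocyte markers summed to 49.3, 130 and 132 TPM with erinacine S and 109 to 125 TPM with DMSO, and the 7 radial glia markers to 242, 760 and 790 TPM with erinacine S and 715 to 763 TPM with DMSO. The 6 dividing cell markers summed to 46.8, 137 and 127 TPM with erinacine S and 139 to 145 TPM with DMSO. At 48 h all 7 of these sums were lowest in the erinacine S replicate 1. For astrocyte and radial glia markers the other erinacine S libraries did not lie below the DMSO range. The part of these cells in the AP-1 values was not tested.

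**Figure D2:**
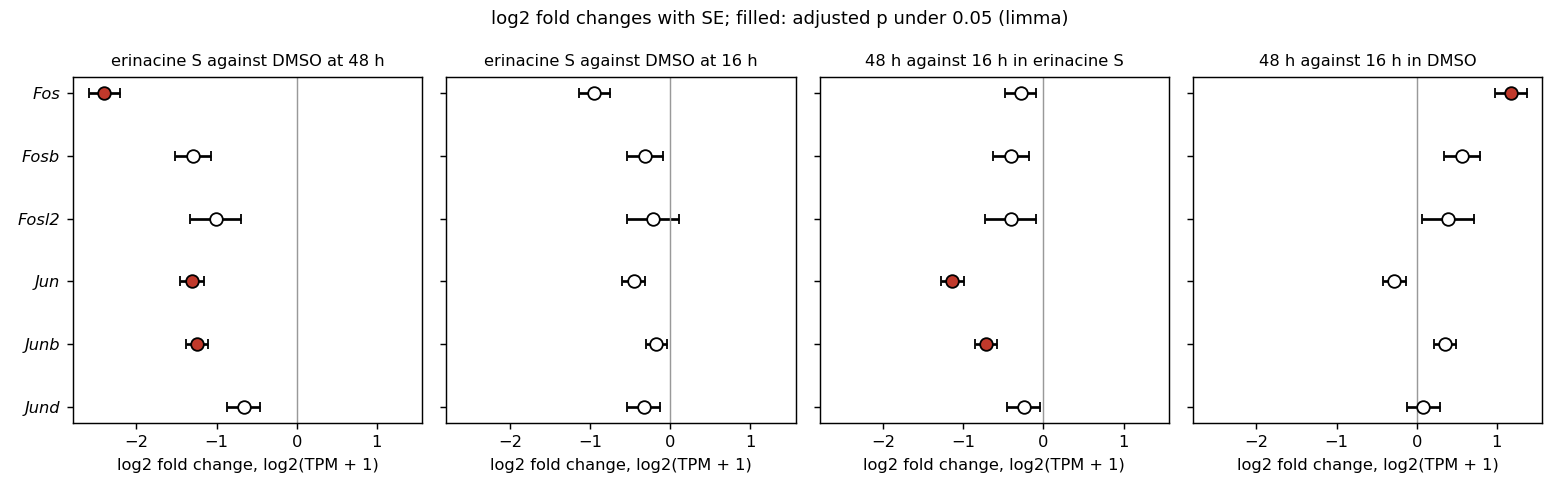
Log2 fold changes ± SE of the 6 tested members on the log2(TPM + 1) scale (limma, 12 libraries), for erinacine S against DMSO at 48 h and 16 h and for 48 h against 16 h in erinacine S and in DMSO; filled marks passed at an adjusted p of 0.05. Fos lies at -2.40 at 48 h and -0.94 at 16 h, and no member passed at 16 h.

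After 16 h, no tested member passed the test, and neither did any other gene of the 15623 (0% called, limma, smallest adjusted p 1.00; 2 of the 6 members had an unadjusted p under 0.05, as had 201 tested genes, 1.29%). Fos had 5.51, 6.62 and 9.16 TPM with erinacine S, against 17.9, 11.98 and 13.6 TPM with DMSO. Jun had 101, 122 and 124 TPM with erinacine S, against 139, 206 and 139 TPM with DMSO. Both sets of libraries lay apart, and these 2 of the 6 tested members were lower without overlap, against 1.56% of tested genes. The log2 difference of Fos was -0.94 ± 0.19 (unadjusted p = 0.000399, limma), and that of Jun was -0.45 ± 0.14 (unadjusted p = 0.00859, limma); Fos ranked 4 of all tested genes by p. By replicate number, which was taken to pair the libraries at 16 h, Fos differed by -1.54, -0.77 and -0.52 and Jun by -0.45, -0.75 and -0.16 (log2). As neither gene overlapped between the treatments, any pairing would be lower with erinacine S in every pair.

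The other members overlapped between the treatments at 16 h. Junb had 8.82, 7.73 and 7.64 TPM with erinacine S and 11.2, 9.38 and 7.32 TPM with DMSO. Jund had 179, 188 and 173 TPM with erinacine S and 184, 351 and 179 TPM with DMSO, where the second DMSO library stands alone. Fosb had 1.01, 1.04 and 1.83 TPM with erinacine S and 1.99, 1.54 and 1.96 TPM with DMSO, with only the third erinacine S library inside the DMSO range. By replicate pair, Fosb differed by -0.57, -0.32 and -0.06 and Jund by -0.04, -0.90 and -0.05. Both were lower with erinacine S in every pair, but the share of all tested genes lower in every pair was not counted. The fit without pairs gave an unadjusted p of 0.184 for Fosb and 0.132 for Jund (limma). Junb differed by -0.32, -0.25 and 0.05, lower in 2 of 3 pairs. Fosl2 ranged over 14.7 to 20.2 TPM with erinacine S and 17.3 to 25.8 TPM with DMSO, and Fosl1 over 1.59 to 2.12 TPM with erinacine S and 1.33 to 2.08 TPM with DMSO. The median log2 difference of the 6 tested members was -0.32, against 0.01 for all tested genes.

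Whether erinacine S acted on a gene to a different extent at the 2 times was tested as the difference between both effects. No gene passed (0% called, limma; 4 of the 6 members had an unadjusted p under 0.05, as had 432 tested genes, 2.77%). The difference was -1.07 ± 0.19 for Junb, the smallest p of all tested genes (unadjusted p = 0.000113, adjusted p = 0.720), and -1.46 ± 0.27 for Fos, with the third smallest (unadjusted p = 0.000190, adjusted p = 0.720, limma). Jun had -0.85 ± 0.20 (unadjusted p = 0.00130) and Fosb -0.97 ± 0.32 (unadjusted p = 0.00984, limma). For no member was the effect at 48 h shown to differ from that at 16 h at the threshold.

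Culture time alone moved many genes, with 32.7% of tested genes called between 48 h and 16 h in DMSO, 16.1% of tested genes higher and 16.6% lower, and 30.6% in erinacine S, 15.1% higher and 15.5% lower. In DMSO, Fos was the only 1 of 6 tested members called: it averaged 33.6 ± 1.47 TPM at 48 h and 14.5 ± 3.07 TPM at 16 h (SD, n = 3 each) and rose by 1.18 ± 0.19 (adjusted p = 0.00102, limma). In erinacine S, Jun averaged 52.2 ± 5.65 TPM at 48 h and 116 ± 12.6 TPM at 16 h and fell by 1.14 ± 0.14 (adjusted p = 0.000254), and Junb averaged 4.51 ± 0.357 TPM at 48 h and 8.06 ± 0.656 TPM at 16 h and fell by 0.72 ± 0.13 (adjusted p = 0.00237, limma). These were 2 of the 6 tested, both lower. Fos itself differed by -0.28 ± 0.19 between the times in erinacine S (adjusted p = 0.295, limma). Cell markers moved between the times too. In DMSO, 6 of 7 oligodendrocyte lineage markers were called higher, with sums of 201 to 233 TPM at 48 h and 59.6 to 108 TPM at 16 h, and 1 of 6 tested astrocyte markers was, with sums of 109 to 125 TPM at 48 h and 54.4 to 72.5 TPM at 16 h. Of 5 tested microglia markers 1 was called lower in DMSO, with sums of 16.3 to 23.2 TPM at 48 h and 20.7 to 39.3 TPM at 16 h. Of 7 radial glia markers 1 was called lower and 1 higher in DMSO, and no dividing cell marker was called there. In erinacine S, 4 of 5 tested microglia markers were called lower, with sums of 1.30 to 8.69 TPM at 48 h and 24.4 to 36.6 TPM at 16 h, as were 3 of 7 radial glia and 2 of 6 dividing cell markers, while 3 of 7 oligodendrocyte lineage markers were called higher. Their part in the Fos, Jun and Junb values was not tested. Since each contrast shares a group with the treatment comparisons, the same libraries enter more than 1 of these values.

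Fosl1 was low in both 48 h groups. It averaged 0.130 ± 0.0732 TPM with erinacine S and 0.290 ± 0.144 TPM with DMSO at 48 h, and 1.77 ± 0.305 TPM with erinacine S and 1.64 ± 0.392 TPM with DMSO at 16 h (SD, n = 3 each). Every 48 h library was below every 16 h library. Of tested genes, 26.4% in DMSO and 23.7% in erinacine S were lower at 48 h without overlap. Its mean lies just under the minimum for testing, and where an alternative let it in, the difference between times was called, with an adjusted p of 0.00305 in DMSO and 0.00138 in erinacine S with no filter on low values (limma).

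The order of the 4 groups differed between members. Fos was highest with DMSO at 48 h, then with DMSO at 16 h, then with erinacine S at 16 h, each without overlap with the next, and lowest with erinacine S at 48 h, which overlapped the 16 h erinacine S libraries. Jun was highest with DMSO at 16 h, narrowly above DMSO at 48 h without overlap, and this difference did not pass (-0.28 ± 0.14, adjusted p = 0.153, limma). Its DMSO 48 h and erinacine S 16 h libraries overlapped, and erinacine S at 48 h was lowest without overlap. For Junb and Jund the only neighbours in the order that did not overlap were erinacine S at 16 h and at 48 h, and for Fosl2 all neighbours overlapped. That difference of Jund did not pass (adjusted p = 0.382, limma). Lack of overlap between the times was common, at 50.5% of tested genes in DMSO and 44.9% in erinacine S.

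Summed TPM describe the 2 families as pools, without a test. The 4 FOS genes summed to 21.1 ± 11.8 TPM with erinacine S and 64.2 ± 6.97 TPM with DMSO at 48 h, and to 27.6 ± 3.39 TPM with erinacine S and 38.5 ± 7.44 TPM with DMSO at 16 h (SD, n = 3 each). The 3 JUN genes summed to 208 ± 18.4 TPM with erinacine S and 384 ± 40.5 TPM with DMSO at 48 h, and to 304 ± 14.4 TPM with erinacine S and 409 ± 137 TPM with DMSO at 16 h. FOS RNA was 8.88% ± 3.75 of the FOS and JUN total with erinacine S and 14.4% ± 1.47 with DMSO at 48 h. These shares overlapped, with erinacine S replicate 1 at 13.2%, inside the DMSO range of 12.7% to 15.2%. Within the FOS pool, Fos made up 29.4% ± 7.05 with erinacine S and 52.5% ± 3.46 with DMSO at 48 h, while Fosl2 made up 66.4% ± 6.93 with erinacine S and 42.0% ± 3.49 with DMSO. Within the JUN pool, Jun made up 25.0% ± 0.566 with erinacine S and 34.1% ± 1.13 with DMSO at 48 h, and Jund 72.8% ± 0.390 with erinacine S and 62.8% ± 1.64 with DMSO. Fosl2 and Jund held a larger share of their pools in the erinacine S 48 h libraries, with no overlap between erinacine S and DMSO for either share.

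**Figure D3:**
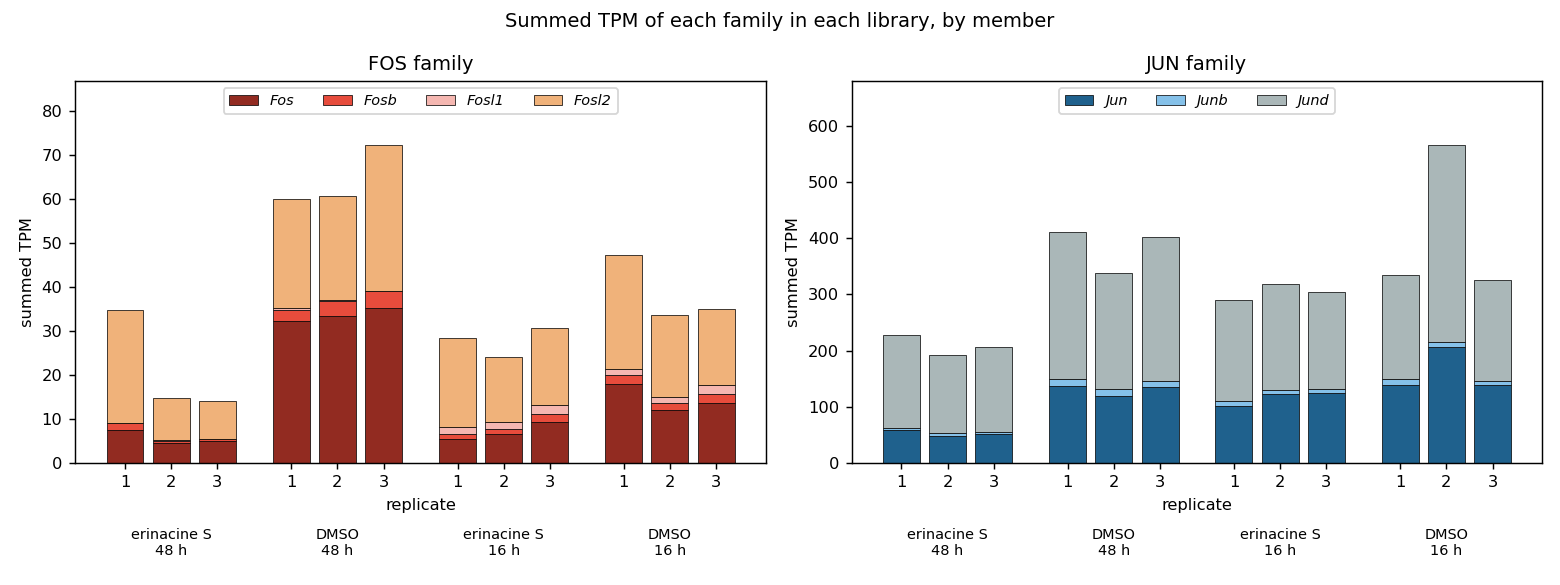
Summed TPM of the FOS genes and of the JUN genes in each library, stacked by member, with erinacine S left of DMSO at each time. The JUN sum lies between 192 and 228 TPM in the erinacine S 48 h libraries and between 337 and 412 TPM in the DMSO 48 h libraries.

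The genes most like each called member were found by the root mean square difference between log2(TPM + 1) profiles over the 12 libraries, each centred on its own mean. Nearest to Fos were Nr4a1 (0.272), an orphan nuclear receptor and immediate early gene, Crh (0.305), the corticotropin-releasing hormone, and Npas4 (0.355), a transcription factor induced by neuronal activity. Crh averaged under 1 TPM in every group but DMSO at 48 h, so its likeness to Fos over the other groups rests on low levels. Nearest to Jun were Sh2d3c (0.258), a signalling adaptor, Ier2 (0.260), an immediate early gene, and Creb5 (0.286), a basic leucine zipper factor. For Junb they were Dusp5 (0.192), a phosphatase of ERK, Arc (0.220), a postsynaptic immediate early gene, and Nr4a3 (0.266), a relative of Nr4a1. Among the tested members themselves the closest pair was Fosb and Fosl2 (0.270), and the pair farthest apart was Fos and Jund (0.794). Fosb averaged only 1.78 TPM, where the pseudocount narrows differences. Both Fosb and Fosl2 were high in the erinacine S 48 h replicate 1, at 3.42 and 2.71 times the next library of that group. Fos and Fosb differed by 0.502 and Jun and Junb by 0.367.

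**Figure D4:**
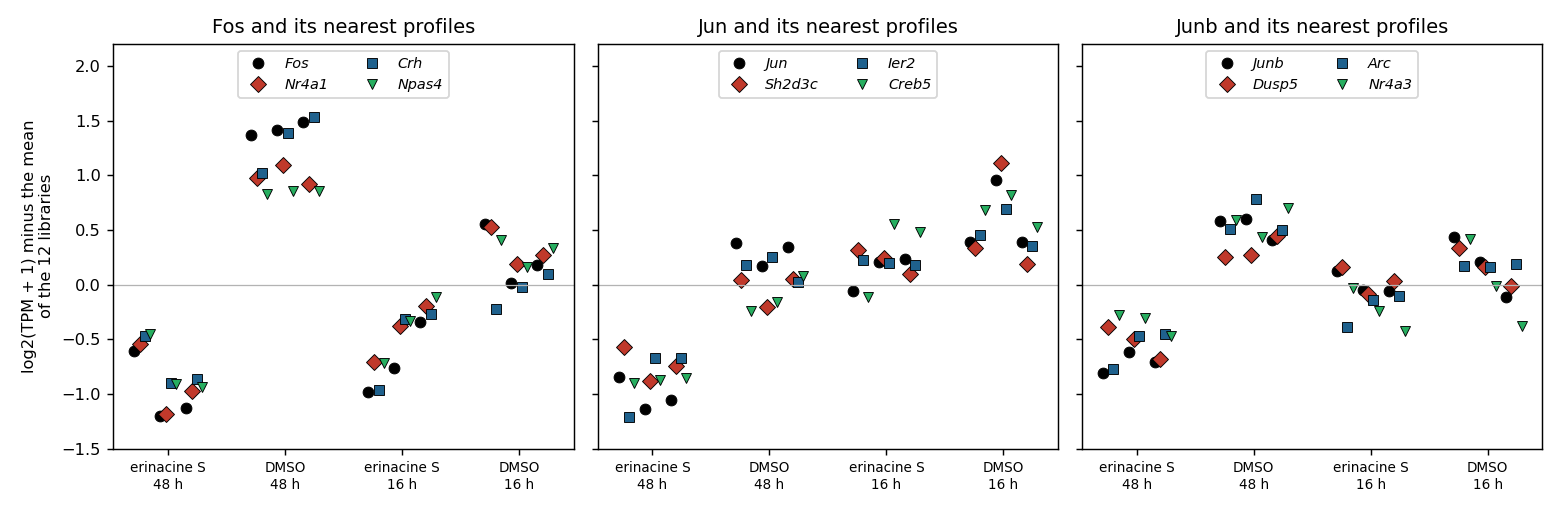
Log2(TPM + 1) minus the gene's own mean over the 12 libraries for Fos, Jun and Junb and the 3 genes nearest to each, 1 point per library. In all 3 panels the erinacine S 48 h libraries lie below the DMSO 48 h libraries. This follows from the choice, since the genes were picked for likeness over these same libraries. Sh2d3c, Creb5 and Nr4a3 did not pass at 48 h (adjusted p = 0.260, 0.144 and 0.0624, limma).

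Of 29 other immediate early genes, which share inducing signals with Fos, 27 were tested. At 48 h 7 of these were called lower, against 0.115% of all tested genes, none was called higher and 20 did not pass. The differences of 24 were negative and of 3 positive, with a median of -0.57, against 0.01 for all tested genes. Nr4a1 had 13.3, 8.20 and 9.64 TPM with erinacine S and 40.0, 43.4 and 38.4 TPM with DMSO at 48 h. Npas4 had 15.0, 10.7 and 10.4 TPM with erinacine S and 37.9, 38.6 and 38.6 TPM with DMSO. Arc had 1.01, 1.47 and 1.51 TPM with erinacine S and 3.89, 4.91 and 3.84 TPM with DMSO. In none of these 3, which were named because they were called, did the treatments overlap, and their log2 differences were -1.89, -1.61 and -1.16. In the whole list, 17 of the 27 tested genes were lower without overlap, against 8.74% of all tested genes. The other 4 called were Egr1 (-1.33), Ier2 (-1.0003), Dusp5 (-0.84) and Dusp1 (-0.57). The calls of Nr4a1 and Npas4 held under every alternative tried. That of Arc held with each library left out in turn and was lost with only the libraries compared (adjusted p = 0.112, limma), while those of Egr1, Ier2, Dusp5 and Dusp1 were lost without some of them, at adjusted p-values of up to 0.175, 0.137, 0.197 and 0.165 (limma). Ier2 and Dusp1 lost theirs without any 1 of the DMSO 48 h libraries, Dusp1 also without erinacine S 48 h replicates 2 or 3 or erinacine S 16 h replicate 3. Egr1 kept its call only without erinacine S 48 h replicates 1 or 2, and Dusp5 only without erinacine S replicate 1 of either time or DMSO 16 h replicates 1 or 3. With no filter on low values all 4 lost their calls, with only the libraries compared Egr1, Ier2 and Dusp5 did, with a pseudocount of 0.1 Egr1 did, and with either replicate block Dusp5 did (adjusted p up to 0.241, limma). The number called in the list was 13 without the erinacine S 48 h replicate 1 and 3 without any 1 of the DMSO 48 h libraries. At 16 h none of the list was called (5 of 27 had an unadjusted p under 0.05, against 1.29% of all tested genes, limma), and the median was -0.16.

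**Figure D5:**
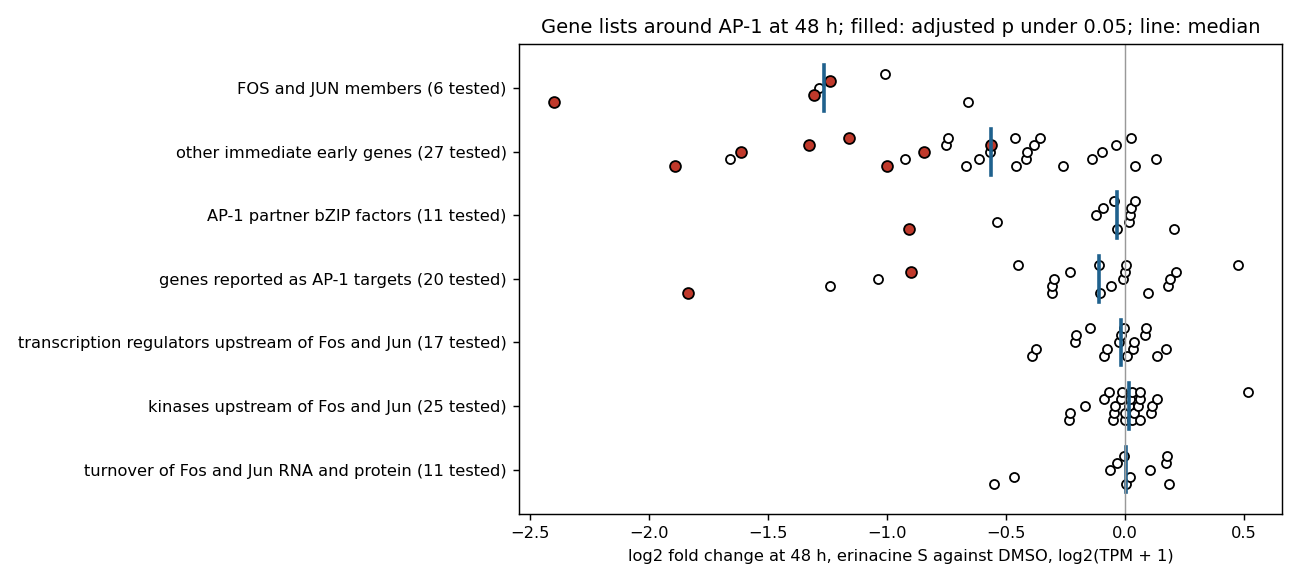
Log2 fold changes at 48 h, erinacine S against DMSO, of each tested gene among the FOS and JUN members and the lists around AP-1, 1 point per gene with the list median as a line; filled points passed at an adjusted p of 0.05 (limma). The immediate early gene list has its median at -0.57 and the kinase list at 0.02.

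The lists around AP-1 gave fewer calls. Over all tested genes 0.115% were called lower at 48 h. Of 15 basic leucine zipper partners 11 were tested and 1 was called lower, Atf3, a stress-induced relative that dimerises with JUN. Atf3 had 0.552, 0.707 and 0.971 TPM with erinacine S and 2.55, 2.33 and 1.92 TPM with DMSO at 48 h, a difference of -0.91 ± 0.15 (adjusted p = 0.0413, limma), and with a library left out this call held only without erinacine S replicate 1 of either time, with adjusted p-values of up to 0.274 without the others. Of 32 genes reported as AP-1 targets, a list gathered from several tissues, 20 were tested and 2 were called lower: Spp1, the secreted phosphoprotein osteopontin (-1.84 ± 0.28, adjusted p = 0.0399), and Vgf, a neuropeptide precursor (-0.90 ± 0.14, adjusted p = 0.0413, limma). The median of the list was -0.11, against 0.01 for all tested genes, and 14 of 20 differences were negative. With a library left out, Spp1 kept its call only without erinacine S 48 h replicates 1 or 3 or DMSO 16 h replicates 2 or 3 (adjusted p otherwise up to 0.197), and Vgf only without erinacine S 48 h replicate 1 or replicate 2 of either DMSO group (otherwise up to 0.175, limma); with the erinacine S 48 h replicate 1 left out 4 of the list were called. Atf3, Spp1 and Vgf also lost their calls with no filter on low values, with only the libraries compared and with either replicate block (adjusted p up to 0.248, limma). Spp1 lost its call with a pseudocount of 0.1 or 5 too, and Atf3 with a pseudocount of 5.

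Genes that act on Fos and Jun gave no call at 48 h. Over all tested genes 0.134% were called, a share at which lists this short would mostly hold none. Of 17 transcription regulators upstream, such as Srf and Creb1, all were tested and none was called (limma; 1 had an unadjusted p under 0.05, against 8.96% of all tested genes), with a median of -0.02; the smallest p was that of Crem, a cAMP-responsive factor (-0.39 ± 0.13, adjusted p = 0.374). Of 26 upstream kinases 25 were tested and none was called (1 with an unadjusted p under 0.05), with a median of 0.02; Rps6ka5, the kinase MSK1, had 0.51 ± 0.15 (adjusted p = 0.278, limma). Of 11 genes for the turnover of Fos and Jun RNA and protein none was called and none had an unadjusted p under 0.05 (limma); the median was 0.00.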

How the data were processed

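Strand-specific libraries of total RNA, 12 in all, were read by Illumina sequencing, per the labels' protocols. The submitters' processing notes name bcl2fastq 2.20, Trimmomatic 0.36, FastQC, HISAT2, SAMtools, StringTie 2.1.3 and the build GRCm38.p5, with no settings; neither annotation release nor strand setting is given there. The authors deposited 1 table of TPM for 51912 genes, with 0.0001 in place of 0. Read depth cannot be had from TPM and is unknown; precision is that shown by the replicates.

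Groups and replicate numbers came from the sample titles. All 15623 genes averaging 1 TPM or more entered 1 fit in limma 3.58.1 (R 4.3.3; eBayes, trended) on log2(TPM + 1), with a mean for each of the 4 groups (8 residual degrees of freedom), two-sided, with Benjamini-Hochberg adjustment over all tested genes and a threshold of 0.05. The pseudocount of 1 understates the change of low genes. The fit was tested on simulated data. Alternatives were other pseudocounts, filters and scalings, a replicate block, robust eBayes, only the libraries compared, and leaving out each library.

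Same-numbered libraries deviated together from their group means at 16 h (r = 0.480, 0.185 and 0.510 across genes), so the numbers were taken to pair them there. The labels do not state this pairing, and differently numbered libraries were not compared. They were not taken to pair the libraries at 48 h (r = -0.0219, 0.107 and -0.192 for the same numbers).

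The members, the 6 lists of related genes and the 8 marker lists were chosen with earlier results of these data known. Named genes are all members, the list genes past the threshold or, where fewer than 2 passed, those with the smallest p at 48 h (in part), and the 3 genes with the profile nearest to each called member. Promoters are RefSeq sequences for GRCm38.p6, and exon counts are from GENCODE M21.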

Additional observations from a re-analysis of the deposited data

How the results depend on the processing

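Of 22 alternative settings, none gave a called member at 16 h or in the difference between the effects at both times. At 48 h, 3 of 6 tested members were called as reported; leaving out each library in turn gave 3 to 5, a pseudocount of 5 and median-ratio scaling gave 4 (with Fosb, adjusted p = 0.0458 and 0.0496), and no filter on low values gave 2. Fos differed by -2.59 to -1.86 over the settings, with adjusted p-values of 0.000174 to 0.0335 (limma). With the replicate number as a block, or as a block within each time, the same 3 members, Fos, Jun and Junb, were called at 48 h and 0 at 16 h. Over all tested genes 21 were called at 48 h, against 13 with the replicate block, 11 with only the libraries compared and 9 to 114 with a library left out, the highest without the erinacine S 48 h replicate 1. Over time, 1 member was called in DMSO as reported; a pseudocount of 5, no filter, TPM without mitochondrially encoded genes and only the libraries compared each gave 2, and leaving out a library gave 1 to 3. In erinacine S 2 were called, and leaving out a library gave 2 to 5, the highest without the erinacine S 48 h replicate 1. The difference of Jund between times in DMSO, 0.08 as reported, reversed to -0.06 without the DMSO 16 h replicate 1 and to -0.084 without replicate 3, and was 0.40 without replicate 2 (adjusted p = 0.0172, limma). The cause of these shifts was not tested. The block changed no other member call. Among the list and marker genes it ended those of Atf3, Spp1, Vgf, Dusp5 and C1qc at 48 h, where the numbers were not taken to pair. The counting precision of low levels, such as those of Fosl1, is unknown without read depth.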
